A study of Mus musculus with 6 samples.

Results

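The collagen and laminin chain genes are the building units of the fibres and sheets on which the cells of the developing heart sit. They were taken by symbol alone, as every row of the raw count table named Col, a number, the letter a and a number, or Lama, Lamb or Lamc and a number. This rule found 55 of 54532 genes, 44 collagen chains and 11 laminin chains, and used no measured value. They were kept in 3 classes, with 11 fibrillar chains, 19 chains of the basement membrane (6 of collagen IV, the multiplexins *Col15a1* and *Col18a1*, and the 11 laminins) and 25 other collagen chains. RNA-seq was performed on whole mouse hearts at embryonic day (E) 9.5, each from 1 embryo, with 3 *Smyd1-KO* and 3 wild-type (WT) hearts. The *Smyd1-KO* embryos were homozygous for a mutated allele of *Smyd1*, a muscle-restricted histone methyltransferase, and came from crosses of heterozygous parents. The allele is a conventional null carried by every cell of the embryo rather than by the cardiomyocytes alone, both sexes were included, and such embryos are lost by the following day of gestation. The comparison asked which chains differed in transcript level between hearts with and without *Smyd1*.

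Collagen chains wind around each other as trimers. Types I, II, III, V and XI assemble into fibrils, type IV forms the network of basement membranes, and other types link, anchor or coat these structures. Laminins are cross-shaped trimers of an alpha, a beta and a gamma chain that polymerise at the cell surface and are joined to the collagen IV network by nidogens and perlecan. In the young heart, myocardium and endocardium each rest on a basement membrane, the gelatinous cardiac jelly lies between them, and fibrillar collagens appear in the cushions, the outflow tract and, later, in cells derived from the epicardium.

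The libraries held 48627825 to 64217529 counts, and values are given as CPM, each count per 1000000 counts of its library with library totals scaled by the trimmed mean of M-values (TMM). Values of 3 hearts are given in the order heart 1, 2 and 3. *Smyd1* itself was at 101, 222 and 206 CPM in the *Smyd1-KO* hearts and 414, 379 and 269.8 CPM in the WT hearts, so reads from the locus remained in all 3 *Smyd1-KO* libraries at lower levels than in any WT library (log2 fold change -1.01 ± 0.30 s.e., edgeR adjusted *P*=0.0973). A pair of *Smyd1-KO* libraries stood apart. *Smyd1-KO* heart 1 had the lowest summed level of 12 cardiomyocyte markers, 9703, 20091 and 20169.9 CPM in the *Smyd1-KO* hearts against 21623, 19955 and 12822 CPM in the WT hearts, and the highest summed level of 5 neural crest markers, 127, 44.8 and 36.8 CPM against 39.4, 37.8 and 51.1 CPM. *Smyd1-KO* heart 3 had the highest levels of many of the matrix genes described here, so the results that rest on it most are also given without it. Markers of red blood cells were lower in the *Smyd1-KO* hearts, with summed levels of 27.3, 274 and 159 CPM against 723, 948 and 910.0 CPM. In these whole hearts, fewer cells of a type and less RNA per cell cannot be told apart.

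Of the 55 chains, 50 had enough reads to be tested. The 5 that did not, all in the class of other collagens (*Col6a4*, *Col6a5*, *Col10a1*, *Col19a1* and *Col28a1*), reached at most 0.267 CPM in any heart. A gene counts as called where the edgeR quasi-likelihood test gave an adjusted *P* under 0.05 over the 19372 genes tested with a log2 fold change of at least 0.5 in either direction. By this rule 1 of the 50 chains was called, *Col2a1*, which was lower in the *Smyd1-KO* hearts, and 4.28% of all tested genes were called. At an unadjusted *P* under 0.05 the counts were 13 chains higher and 6 lower, against 13.1% and 11.9% of all tested genes. In 10 chains all 3 *Smyd1-KO* hearts were above all 3 WT hearts and in 5 all were below, while 15.9% and 15.5% of all tested genes separated in these directions, 31.3% in all. DESeq2, the tool of the study, called 10 chains at the same thresholds, where it called 9.29% of all genes. It called *Col11a1*, *Col15a1*, *Lama3*, *Lamb3*, *Col9a1*, *Col16a1* and *Col8a2* as higher (5.98% of all genes) and *Col2a1*, *Col22a1* and *Col7a1* as lower (3.31%). With no filter on low counts edgeR called 4 chains and 3.09% of all genes, and with at least 10 counts required in every heart 2 chains and 5.03%. Without *Smyd1-KO* heart 3, edgeR called none of the 50 chains and 1.72% of all genes tested. In that fit 7 chains were higher and 9 lower at an unadjusted *P* under 0.05, beside 2237 and 1791 of 19982 genes.

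The median and range of the estimates are given by class. The median log2 fold change was 0.45 over the 11 fibrillar chains, 0.16 over the 19 basement membrane chains and 0.11 over the 20 other chains tested, beside -0.0026 over all tested genes. Over the 50 chains together it was 0.18, and 0.039 without *Smyd1-KO* heart 3. Without that heart the class medians became 0.16, 0.037 and 0.067. The single values ran from -0.80 (*Col2a1*) to 2.59 (*Col1a1*) in the fibrillar class, from -0.49 (*Col4a3*) to 1.70 (*Lamb3*) in the basement membrane class and from -1.35 (*Col6a6*) to 2.70 (*Col6a3*) among the others. *Col4a3* and *Col6a6* were below 1 CPM in every heart. Without *Smyd1-KO* heart 3 the ranges were -0.75 to 0.87, -0.71 to 1.22 and -1.92 to 0.97, in the same order of classes. The fibrillar class then no longer reached higher than the basement membrane class.

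**Figure D1:**
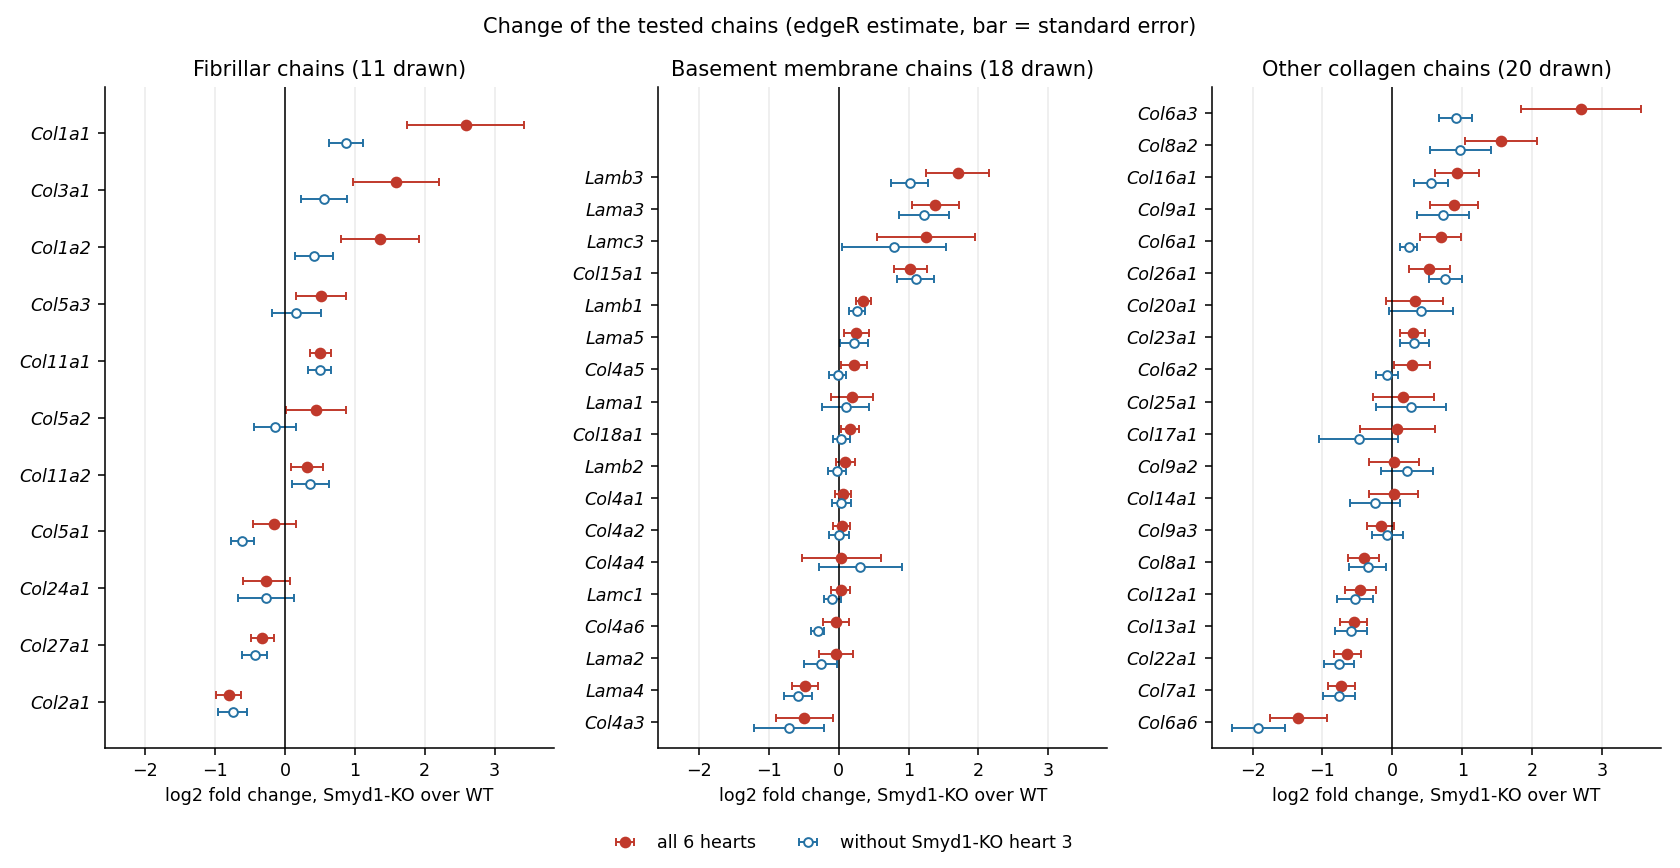
Log2 fold change of 49 of the 50 tested chains in *Smyd1-KO* over WT hearts, by class. Filled points are the edgeR estimates from all 6 hearts, open points those without *Smyd1-KO* heart 3, and bars are standard errors. *Col1a1*, *Col3a1*, *Col1a2* and *Col6a3* move far to the left when that heart is left out, while *Col2a1*, *Col11a1*, *Col15a1* and *Lama3* move little.

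Among the fibrillar chains, *Col2a1* encodes the chain of type II collagen, the main fibril of cartilage, which is also made in the early embryonic heart. The gene lies at chr15:97975602-98004695 of GRCm38 and had the highest level per kilobase of transcript of the class, 130.0 CPM per kb over the 6 hearts. *Col2a1* was at 429.8, 575 and 445 CPM in the *Smyd1-KO* hearts and 780.3, 1038 and 714 CPM in the WT hearts. Every *Smyd1-KO* heart was below every WT heart, and heart 2 had the highest level within each genotype. Mean levels were 483 ± 80.0 and 844 ± 171 CPM (SD, n=3 each), a log2 fold change of -0.80 ± 0.18 (s.e., edgeR adjusted *P*=0.0466, DESeq2 adjusted *P*=0.000494). The size of the difference held without *Smyd1-KO* heart 3 at -0.75, but the call was lost when any 1 of the 6 hearts was left out. Of 7 chondrogenic markers 5 were tested and 1, *Matn3*, was called, as higher (6.15, 7.09 and 8.16 CPM against 3.64, 2.85 and 3.38 CPM, log2 fold change 1.12, edgeR adjusted *P*=0.021), while *Acan*, a defining cartilage proteoglycan, was below 1 CPM in every heart. Of all tested genes, 2.86% were called as higher. Among the 5 markers, 3 estimates were above 0 and 2 below. At an unadjusted *P* under 0.05, 2 were higher and 0 lower, beside 13.1% and 11.9% of all tested genes.

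The alpha 1 chain of type XI collagen, *Col11a1*, co-assembles with type II in mixed fibrils and differed in the other direction. It was at 42.0, 38.3 and 41.4 CPM in the *Smyd1-KO* hearts and 26.5, 24.0 and 35.0 CPM in the WT hearts. The groups did not overlap, with WT heart 3 the closest to the *Smyd1-KO* hearts. The log2 fold change was 0.51 ± 0.15 (edgeR adjusted *P*=0.0875, not called, DESeq2 adjusted *P*=0.0253), and 0.50 without *Smyd1-KO* heart 3. As a ratio of levels per kilobase, *Col2a1* over *Col11a1* was 15.4, 22.6 and 16.1 in the *Smyd1-KO* hearts and 44.2, 64.9 and 30.6 in the WT hearts, so the ratio in every WT heart exceeded that in every *Smyd1-KO* heart. *Col11a2*, the partner chain of type XI, lay between 2.77 and 5.09 CPM in the 6 hearts and did not pass the test (log2 fold change 0.32, edgeR adjusted *P*=0.424).

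*Col1a1* and *Col1a2*, which form type I collagen, and *Col3a1*, which forms type III, had the highest estimates of the class, and none was called. *Col1a1* was at 237, 127 and 1431 CPM in the *Smyd1-KO* hearts and 101, 86.4 and 111 CPM in the WT hearts. *Col1a2* was at 235, 128 and 689.8 CPM and 156, 106 and 147 CPM, and *Col3a1* at 267, 116 and 792 CPM and 127, 108 and 155 CPM, in the same order. For each of the 3 genes *Smyd1-KO* heart 3 was far above the other hearts, heart 1 was next, and heart 2 lay close to the WT hearts. The groups were apart for *Col1a1*, by a narrow margin in heart 2, and overlapped for *Col1a2* and *Col3a1*. The log2 fold changes were 2.59 ± 0.84, 1.36 ± 0.56 and 1.59 ± 0.61, with edgeR adjusted *P* of 0.114, 0.186 and 0.164. Without *Smyd1-KO* heart 3 they fell to 0.87, 0.41 and 0.56. The ratio of *Col1a1* to *Col1a2* per kilobase was 0.913, 0.893 and 1.87 in the *Smyd1-KO* hearts and 0.583, 0.737 and 0.682 in the WT hearts. The ratio was higher in all 3 *Smyd1-KO* hearts, heart 2 included, than in any WT heart.

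The chains of type V collagen, which is built into type I fibrils and helps to start them, had estimates on both sides of 0. *Col5a1* was at 166, 159 and 346 CPM in the *Smyd1-KO* hearts and 209.7, 304 and 231 CPM in the WT hearts (log2 fold change -0.15, and -0.61 without *Smyd1-KO* heart 3). *Smyd1-KO* hearts 1 and 2 were the lowest of the 6 and heart 3 the highest. *Col5a2*, whose gene ends 24614 bp from the end of *Col3a1* on the opposite strand, was at 137, 92.2 and 288 CPM and 178, 87.9 and 113 CPM in the *Smyd1-KO* and WT hearts, and its groups overlapped (log2 fold change 0.45, edgeR adjusted *P*=0.561). *Col5a3* did not exceed 1.17 CPM in any heart. *Col24a1* and *Col27a1* overlapped between groups, with log2 fold changes of -0.27 and -0.32.

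Summed per kilobase, the 11 fibrillar chains came to 265, 219 and 693 CPM per kb in the *Smyd1-KO* hearts and 280.1, 313 and 267 CPM per kb in the WT hearts. Only *Smyd1-KO* heart 3 lay above the WT hearts. Within that sum, *Col2a1* made up 31.8, 51.4 and 12.6% in the *Smyd1-KO* hearts and 54.6, 64.9 and 52.3% in the WT hearts. *Col1a1* made up 15.1, 9.72 and 34.8% and 6.06, 4.65 and 7.02%. The shares of *Col2a1* were lower and those of *Col1a1* higher in every *Smyd1-KO* heart than in any WT heart, with heart 2 closest to the WT hearts for both.

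**Figure D2:**
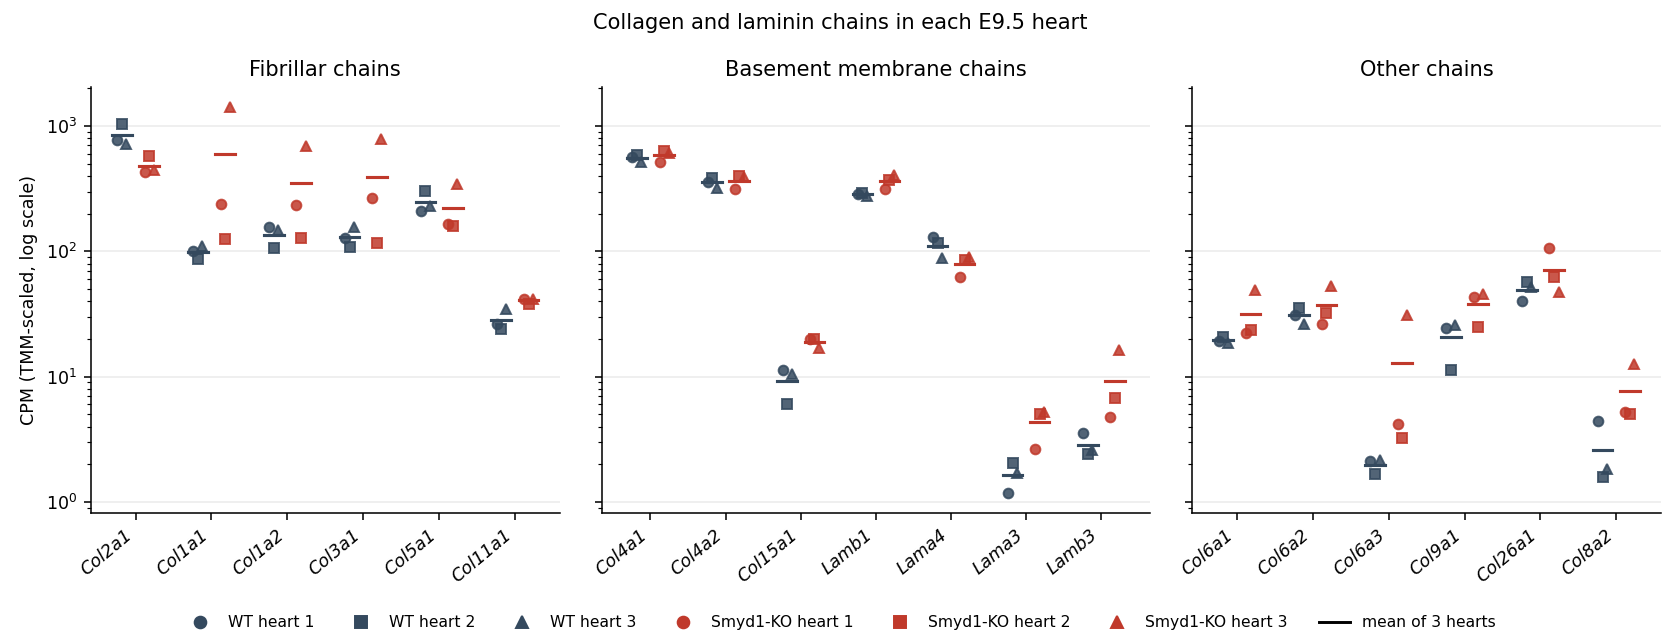
CPM of selected chains in each heart on a log scale, by class. Points are single hearts (circle, square and triangle for hearts 1, 2 and 3), and lines are means of 3 hearts. The triangle of *Smyd1-KO* heart 3 lies far above the other points for *Col1a1*, *Col1a2*, *Col3a1* and *Col6a3*, whereas *Col4a1* and *Col4a2* lie together in both groups.

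The high values in *Smyd1-KO* heart 3 followed a pattern that reached beyond these genes. That heart was the highest of the 6 in 25 of the 50 tested chains (50.0%), and in 20.0% of all tested genes. The level in heart 3 was 7.46 times that of the next highest heart for *Col6a3*, 6.03 times for *Col1a1*, 2.97 times for *Col3a1* and 2.94 times for *Col1a2*. Some genes of fibroblast-type matrix, picked after their values were seen, were also highest in that heart. *Lum*, a collagen-binding proteoglycan, was at 32.2, 4.21 and 142 CPM in the *Smyd1-KO* hearts and 6.50, 1.02 and 5.93 CPM in the WT hearts, and *Postn*, periostin, at 150.1, 27.0 and 618 CPM and 39.5, 7.04 and 36.9 CPM. *Dcn*, decorin, was at 4.48, 2.94 and 19.2 CPM and 1.66, 1.01 and 1.94 CPM. The epicardial markers were highest in the same heart, with 9 markers summing to 188, 262 and 349.6 CPM in the *Smyd1-KO* hearts and 169.9, 145 and 179 CPM in the WT hearts. None was called by edgeR. At an unadjusted *P* under 0.05, 3 were higher, and DESeq2 called 3, beside 13.1% and 9.29% of all genes. The 9 cushion mesenchyme markers summed to 685, 680.2 and 752 CPM and 787, 655 and 788 CPM, none called by edgeR. Of these, 2 were higher at an unadjusted *P* under 0.05 and 1 was called by DESeq2, beside the same shares of all genes. The epicardial sum was not alone in being highest in *Smyd1-KO* heart 3. The summed endothelial and endocardial markers (1352 CPM) and chondrogenic markers (59.7 CPM) were highest there as well. The sums for cardiomyocyte, cushion mesenchyme, endoderm, neural crest and red blood cell markers were highest in other hearts. The part of any of these cell types in the levels of *Col1a1*, *Col1a2*, *Col3a1* and *Col6a3* was not tested.

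Sequence just upstream of the annotated start is shown for *Col3a1* and *Col6a3*, which were both highest by far in *Smyd1-KO* heart 3, and for *Col15a1* and *Col11a1*, which were higher to a like degree in all 3 *Smyd1-KO* hearts. The windows hold the 250 bases before the RefSeq start, 5′ to 3′ on the strand of the gene, and overlap no annotated exon. Capitals mark CCAAT, its complement ATTGG, or TATAAA.
Col3a1 (GRCm38 chr1:45311288-45311537, + strand): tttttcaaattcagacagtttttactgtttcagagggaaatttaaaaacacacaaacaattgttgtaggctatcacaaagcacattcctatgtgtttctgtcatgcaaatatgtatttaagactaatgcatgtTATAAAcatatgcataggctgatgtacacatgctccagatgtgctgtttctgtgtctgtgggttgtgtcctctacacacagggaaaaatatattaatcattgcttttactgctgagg
Col6a3 (GRCm38 chr1:90843972-90844221, - strand): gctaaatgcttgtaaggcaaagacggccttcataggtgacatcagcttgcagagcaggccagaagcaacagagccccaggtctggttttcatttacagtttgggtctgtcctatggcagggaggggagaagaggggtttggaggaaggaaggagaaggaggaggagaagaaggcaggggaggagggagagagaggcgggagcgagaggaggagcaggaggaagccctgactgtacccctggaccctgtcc
Col15a1 (GRCm38 chr4:47207762-47208011, + strand): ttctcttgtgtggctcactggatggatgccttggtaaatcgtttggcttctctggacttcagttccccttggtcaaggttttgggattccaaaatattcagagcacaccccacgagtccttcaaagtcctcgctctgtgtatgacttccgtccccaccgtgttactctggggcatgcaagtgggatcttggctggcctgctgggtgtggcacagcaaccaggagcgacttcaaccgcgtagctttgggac
Col11a1 (GRCm38 chr3:114030290-114030539, + strand): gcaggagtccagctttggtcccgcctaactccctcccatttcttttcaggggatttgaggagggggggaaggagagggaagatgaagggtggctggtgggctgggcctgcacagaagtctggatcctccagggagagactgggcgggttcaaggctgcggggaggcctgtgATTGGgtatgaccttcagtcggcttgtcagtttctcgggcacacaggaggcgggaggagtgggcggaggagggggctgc
*Col3a1* had a TATAAA 117 bases before its start and *Col11a1* an ATTGG 79 bases before, while *Col6a3* and *Col15a1* held none of these letters in the window. The windows were 35.2%, 57.2%, 53.6% and 62.4% G or C. RefSeq promoters were at hand for 40 of the 55 chain genes, with 44 starts, which did not include *Col1a1* and *Col2a1*. On either strand, CCAAT was in 31.8% of these 44 windows and in 33.8% of the 32851 windows of all genes, and TATAAA in 11.4% and 12.4%. GGGCGG, the core of GC boxes, was in 54.5% of the chain windows and 32.7% of all windows. The letters ACGTG or GCGTG, which hold the core read by HIF factors, were in 29.5% and 38.6%.

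The most abundant collagens of the basement membrane class did not pass the test. *Col4a1* and *Col4a2*, which form the main collagen IV trimer of most basement membranes, lie head to head on chromosome 8, *Col4a1* at chr8:11198423-11312826 and *Col4a2* at chr8:11312805-11449287, so that their first exons share 22 bases on opposite strands. The shared bases are shown in capitals, on the + strand, with 4 bases on either side (GRCm38 chr8:11312801-11312830).
Col4a1 and Col4a2: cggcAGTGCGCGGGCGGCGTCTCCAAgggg
*Col4a1* was at 512, 632 and 606 CPM in the *Smyd1-KO* hearts and 568, 592 and 515 CPM in the WT hearts. *Col4a2* was at 313, 398 and 389 CPM and 359.9, 386 and 321 CPM. *Smyd1-KO* heart 1 and WT heart 3 were the lowest for both genes, and the groups overlapped. Log2 fold changes were 0.064 ± 0.11 and 0.046 ± 0.12 (edgeR adjusted *P*=0.763 and 0.85). Their ratio per kilobase was 1.59, 1.55 and 1.52 in the *Smyd1-KO* hearts and 1.54, 1.50 and 1.56 in the WT hearts. *Smyd1-KO* heart 3, which set the type I and III collagens apart, did not set these genes apart.

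The pair on the X chromosome, *Col4a5* and *Col4a6*, is also transcribed in opposite directions, from starts 1308 bp apart. *Col4a5* was at 97.2, 123 and 168 CPM in the *Smyd1-KO* hearts and 113, 116 and 106 CPM in the WT hearts. *Col4a6* was at 44.0, 48.5 and 73.8 CPM and 54.9, 59.9 and 56.0 CPM. *Smyd1-KO* heart 3 was highest for both, the groups overlapped, and neither passed the test (log2 fold change 0.22 and -0.039). The ratio of *Col4a5* to *Col4a6* per kilobase was 2.25, 2.59 and 2.32 in the *Smyd1-KO* hearts and 2.08, 1.96 and 1.93 in the WT hearts, without overlap. *Xist*, the RNA of the inactive X chromosome, was at 2.76, 843 and 794 CPM and 2.80, 766 and 939 CPM, so heart 1 of each genotype lacked it, and the ratio did not follow that split. *Col4a3* and *Col4a4*, the pair known from kidney and lung basement membranes, stayed below 1 CPM in every heart (log2 fold change -0.49 and 0.035).

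The multiplexins carry heparan or chondroitin sulphate and sit at the fibril side of basement membranes. *Col18a1*, the source of endostatin, had the highest level per kilobase of all 55 chains, 184 CPM per kb, and was at 811, 894 and 1082 CPM in the *Smyd1-KO* hearts and 789.9, 919 and 780.0 CPM in the WT hearts. Its groups overlapped and it did not pass the test (log2 fold change 0.16 ± 0.13, edgeR adjusted *P*=0.486). *Col15a1*, found around capillaries and muscle fibres, was at 19.8, 20.1 and 16.9 CPM in the *Smyd1-KO* hearts and 11.4, 6.05 and 10.5 CPM in the WT hearts. All 3 *Smyd1-KO* hearts were higher than any WT heart, and heart 3 was the lowest of them. The log2 fold change of 1.02 ± 0.24 missed the threshold in edgeR (adjusted *P*=0.0541) and passed it in DESeq2 (adjusted *P*=0.000495). Of 12 endothelial and endocardial markers, 7 had estimates above 0 and 5 below. At an unadjusted *P* under 0.05, 4 were higher and 2 lower, beside 13.1% and 11.9% of all tested genes. By edgeR 1 was called, *Flt1*, a receptor for VEGF (94.4, 125 and 158 CPM against 52.1, 63.2 and 55.4 CPM, log2 fold change 1.15, edgeR adjusted *P*=0.0192). DESeq2 called *Flt1* and *Kdr*, another VEGF receptor, as higher, and the endocardial genes *Nfatc1* and *Npr3* as lower (edgeR log2 fold change 0.70, -0.83 and -0.52 for the last 3, none called by edgeR). Of all tested genes, edgeR called 4.28% and DESeq2 9.29%. The 12 summed to 867, 1067 and 1352 CPM in the *Smyd1-KO* hearts and 968, 1000.0 and 821 CPM in the WT hearts, with overlap. Their part in the level of *Col15a1* was not tested.

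None of the 11 laminin chains was called by edgeR. At an unadjusted *P* under 0.05, 3 were higher and 1 lower, and DESeq2 called 2, beside 13.1%, 11.9% and 9.29% of all genes. In 3 chains, *Lamb1*, *Lama3* and *Lamb3*, all *Smyd1-KO* hearts were above all WT hearts, beside 15.9% of all tested genes. The main chains of the hearts were *Lamb1*, *Lamc1*, *Lamb2* and *Lama5*, at 58.6, 54.0, 25.6 and 23.5 CPM per kb, whose products join in the laminins of most embryonic basement membranes. *Lamb1* was at 314, 371 and 410.3 CPM in the *Smyd1-KO* hearts and 289, 294 and 275 CPM in the WT hearts, a small difference without overlap (log2 fold change 0.35 ± 0.11, edgeR adjusted *P*=0.111). *Lamc1*, the gamma chain of most laminins, was at 359.6, 404 and 484 CPM and 366, 443 and 413 CPM (log2 fold change 0.030 ± 0.13). *Lamb2* and *Lama5* overlapped as well, with log2 fold changes of 0.10 ± 0.14 and 0.25 ± 0.18.

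*Lama3* and *Lamb3* encode chains of the anchoring laminin of stratified epithelia. *Lama3* was at 2.65, 5.02 and 5.26 CPM in the *Smyd1-KO* hearts and 1.17, 2.06 and 1.71 CPM in the WT hearts. *Lamb3* was at 4.75, 6.75 and 16.2 CPM and 3.52, 2.43 and 2.58 CPM. Both were low in every heart and higher in each *Smyd1-KO* heart than in any WT heart, *Lama3* to a like degree in hearts 2 and 3 and *Lamb3* mainly in heart 3. The log2 fold changes were 1.38 ± 0.33 and 1.70 ± 0.45 (edgeR adjusted *P*=0.0574 and 0.0738, DESeq2 adjusted *P*=0.000531 and 0.00047), and 1.22 and 1.02 without *Smyd1-KO* heart 3. Both were called by edgeR when *Smyd1-KO* heart 1 was left out. *Lamc3* varied from 0.321 to 2.59 CPM within the *Smyd1-KO* group.

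The proportions of the alpha chains are given as description, and neither *Lama4* nor *Lama5* was called. *Lama4*, the alpha chain of laminins around vessels and muscle, was at 62.8, 85.5 and 90.9 CPM in the *Smyd1-KO* hearts and 129.5, 116 and 88.8 CPM in the WT hearts, and WT heart 3 lay within the range of the *Smyd1-KO* hearts (log2 fold change -0.48 ± 0.18, edgeR adjusted *P*=0.154). Of the 5 alpha chains per kilobase, *Lama4* made up 22.9, 28.6 and 27.8% in the *Smyd1-KO* hearts and 48.8, 34.9 and 29.8% in the WT hearts. *Lama5* made up 48.9, 56.2 and 49.3% and 36.6, 45.0 and 47.8%. The hearts of the genotypes did not overlap in either share, though WT heart 3 came within a few percentage points of the *Smyd1-KO* hearts. *Lama1*, an early embryonic chain, ranged from 52.1 to 112 CPM with overlap, and *Lama2*, the chain of skeletal and cardiac muscle, from 6.95 to 12.3 CPM. Among the beta chains, *Lamb2* made up 27.3, 28.3 and 28.5% in the *Smyd1-KO* hearts and 31.2, 33.9 and 31.5% in the WT hearts, again without overlap. With 3 hearts against 3, an exact two-sided permutation test of a single ratio cannot go below *P*=0.1. These shares, and the ratios between chains elsewhere, are therefore given without a test. For single genes, 31.3% of all tested genes separated by genotype.

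**Figure D3:**
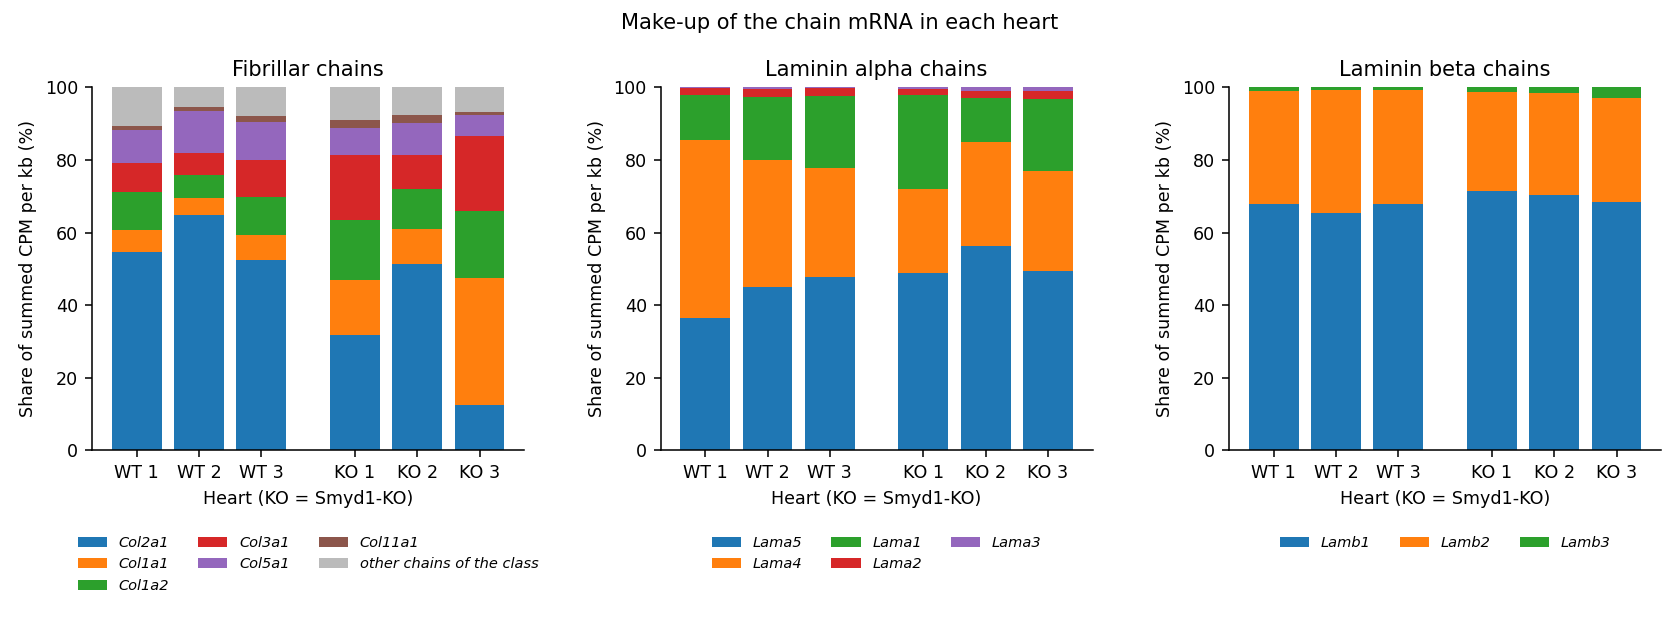
Share of the summed CPM per kb taken by each chain in each heart (KO, *Smyd1-KO*), for fibrillar collagen chains, laminin alpha chains and laminin beta chains. Bars add to 100%. *Col2a1* takes a smaller share in each *Smyd1-KO* heart, most of all in heart 3, and *Lama4* a smaller share of the alpha chains.

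The other collagen chains held no gene called by edgeR and 5 called by DESeq2, which called 9.29% of all genes. At an unadjusted *P* under 0.05, 5 were higher and 4 lower among the 20 tested, beside 13.1% and 11.9% of all genes. Collagen VI forms beaded filaments around cells from the products of *Col6a1*, *Col6a2* and one further chain, most often that of *Col6a3*. *Col6a3* was at 4.18, 3.25 and 31.1 CPM in the *Smyd1-KO* hearts and 2.11, 1.67 and 2.16 CPM in the WT hearts. Heart 3 was the highest by far, and hearts 1 and 2 also lay above all WT hearts. The log2 fold change of 2.70 ± 0.86 was not called (edgeR adjusted *P*=0.111), DESeq2 gave it no adjusted *P*, and without heart 3 it fell to 0.90 (edgeR adjusted *P*=0.111). *Col6a1* was at 22.2, 23.6 and 48.8 CPM and 19.2, 20.8 and 18.5 CPM, and *Col6a2* at 26.4, 32.1 and 53.4 CPM and 31.0, 35.4 and 26.1 CPM, in the *Smyd1-KO* and WT hearts. *Smyd1-KO* heart 3 was highest for both, and the log2 fold changes fell from 0.69 to 0.23 and from 0.27 to -0.074 without it. Per kilobase, *Col6a3* had a ratio to *Col6a1* of 0.0858, 0.0626 and 0.291 in the *Smyd1-KO* hearts and 0.0503, 0.0365 and 0.0533 in the WT hearts. Its transcript was thus below that of *Col6a1* in all 6 hearts, and least so in *Smyd1-KO* heart 3. *Col6a6* was below 1 CPM in every heart, at 0.144, 0.169 and 0.385 CPM and 0.537, 0.614 and 0.646 CPM (log2 fold change -1.35 ± 0.41, edgeR adjusted *P*=0.101).

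Of 9 collagens that decorate fibrils (the FACIT chains), 8 were tested, with a median log2 fold change of 0.020. *Col9a1*, a chain of type IX collagen that coats type II fibrils, was at 43.4, 24.7 and 45.6 CPM in the *Smyd1-KO* hearts and 24.5, 11.4 and 26.0 CPM in the WT hearts. *Smyd1-KO* heart 2 fell among the WT hearts and WT heart 2 was the lowest (log2 fold change 0.88 ± 0.35, edgeR adjusted *P*=0.172, DESeq2 adjusted *P*=0.0436). Its partners *Col9a2* and *Col9a3* had log2 fold changes of 0.021 and -0.17, with overlap. *Col16a1* was at 10.9, 8.78 and 18.6 CPM in the *Smyd1-KO* hearts and 4.95, 8.00 and 7.21 CPM in the WT hearts, apart by a narrow gap, with heart 3 the highest (log2 fold change 0.92, edgeR adjusted *P*=0.125, and 0.55 without heart 3). *Col22a1*, a chain of muscle and tendon junctions, was lower in every *Smyd1-KO* heart, at 12.4, 8.63 and 13.1 CPM against 17.5, 20.6 and 15.3 CPM (log2 fold change -0.65, edgeR adjusted *P*=0.099). *Col12a1*, *Col14a1* and *Col20a1* overlapped between groups, with log2 fold changes from -0.46 to 0.32.

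Of the remaining families, *Col7a1*, the anchoring fibril chain, was at 9.81, 11.5 and 11.5 CPM in the *Smyd1-KO* hearts and 15.8, 23.4 and 15.1 CPM in the WT hearts. All *Smyd1-KO* hearts were lower, and heart 3 did not stand apart (log2 fold change -0.73 ± 0.19, edgeR adjusted *P*=0.0714, DESeq2 adjusted *P*=0.00557). *Col13a1*, a transmembrane collagen of cell adhesion sites, was likewise lower in each *Smyd1-KO* heart, at 13.2, 20.9 and 18.8 CPM against 26.2, 29.8 and 21.6 CPM (log2 fold change -0.55, edgeR adjusted *P*=0.136). *Col26a1*, the most abundant of the other chains per kilobase (22.2 CPM per kb), was at 105, 62.1 and 47.1 CPM in the *Smyd1-KO* hearts and 39.9, 56.7 and 52.0 CPM in the WT hearts. Its high value was in *Smyd1-KO* heart 1, the library with high neural crest markers, while heart 3 lay within the WT range (log2 fold change 0.53, edgeR adjusted *P*=0.298). The part of neural crest cells in that value was not tested. Of the network-forming type VIII chains of vessel walls, *Col8a2* was at 5.22, 5.02 and 12.7 CPM and 4.41, 1.59 and 1.83 CPM in the *Smyd1-KO* and WT hearts, just apart (log2 fold change 1.55 ± 0.52, edgeR adjusted *P*=0.12, 0.97 without heart 3), and *Col8a1* had a log2 fold change of -0.41. The transmembrane chains *Col17a1*, *Col23a1* and *Col25a1* overlapped, with log2 fold changes from 0.071 to 0.29.

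Lists of other matrix genes, chosen with earlier results of these data known, were read from the same fit. Of 28 matrix partner genes, such as nidogens, fibrillins and fibronectin, none was called by edgeR. At an unadjusted *P* under 0.05, 6 were higher and 3 lower, and DESeq2 called 7, beside 13.1%, 11.9% and 9.29% of all genes. The largest estimates were those of *Lum* (3.73 ± 1.21), *Postn* (3.25 ± 1.11) and *Dcn* (2.53 ± 0.71), which without *Smyd1-KO* heart 3 were 2.02, 1.67 and 1.27. The list's median log2 fold change was 0.26, and 0.027 without that heart.

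Of 23 receptor genes, 2 were called, both lower, beside 1.42% of all tested genes called as lower. *Itga7*, the laminin-binding integrin alpha chain of muscle, was at 1.42, 1.74 and 2.03 CPM in the *Smyd1-KO* hearts and 4.13, 5.12 and 3.80 CPM in the WT hearts (log2 fold change -1.33 ± 0.22, edgeR adjusted *P*=0.0208). *Itgb3*, the beta chain of a vitronectin receptor, was at 16.7, 25.1 and 24.1 CPM and 54.5, 56.8 and 37.7 CPM (log2 fold change -1.18 ± 0.21, edgeR adjusted *P*=0.0256). For both genes the groups were well apart. The collagen-binding integrin chains *Itga10* and *Itga2* had log2 fold changes of -0.68 and 0.59, and *Adgrg1*, a receptor for collagen III, -0.41 (edgeR adjusted *P*=0.118, 0.115 and 0.196). *Itgb1*, *Itga6* and *Dag1*, the common laminin receptor genes, were not called, and the median of the list was 0.12. Without *Smyd1-KO* heart 3 only *Itga7* was called, with log2 fold changes of -1.46 for *Itga7* and -1.24 for *Itgb3*.

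The list of 25 genes that process collagen was likewise chosen with earlier results of these data known. Of the 25 genes, 7 were called and all were higher, beside 2.86% of all tested genes called as higher. Among them were *P4ha2* and *P4ha1*, alpha subunits of the enzyme that hydroxylates collagen prolines. *P4ha1* was at 376, 389.7 and 453 CPM in the *Smyd1-KO* hearts and 148, 127 and 131 CPM in the WT hearts (log2 fold change 1.59 ± 0.11, edgeR adjusted *P*=0.000996). *P4ha2*, *P4hb*, the lysyl hydroxylases *Plod1* and *Plod2*, and the cross-linking oxidases *Lox* and *Loxl2* had log2 fold changes of 2.37, 0.62, 0.76, 1.57, 2.86 and 1.20. *Smyd1-KO* heart 3 was the highest heart for 6 of these 7 genes. Without it the estimates were 1.50 for *P4ha1* and, in the order just given, 2.12, 0.54, 0.73, 1.52, 2.41 and 1.11. Then 5 were called, beside 1.72% of all genes tested, and *P4hb* and *Plod1* were not (edgeR adjusted *P*=0.0601 and 0.0565). *Serpinh1*, the collagen chaperone, was not called (0.26 ± 0.15, edgeR adjusted *P*=0.337), and *Bmp1*, which trims procollagen, had a log2 fold change of -0.46 (edgeR adjusted *P*=0.0841). *Loxl3* and *Pcolce* had 0.81 and 0.54. The median of the list was 0.15, and 0.094 without heart 3.

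Of 18 protease and inhibitor genes tested from a list of 19, 3 were called, beside 4.28% of all tested genes. *Mmp14*, a membrane collagenase, was lower at 97.6, 86.7 and 109 CPM in the *Smyd1-KO* hearts against 142, 158 and 159 CPM in the WT hearts (log2 fold change -0.64 ± 0.10, edgeR adjusted *P*=0.0199). *Adamts19* was lower as well (-0.58 ± 0.12, edgeR adjusted *P*=0.0388). *Timp3*, a matrix-bound inhibitor of metalloproteinases, was higher, at 49.1, 48.2 and 47.1 CPM against 34.6, 22.2 and 23.4 CPM (log2 fold change 0.85 ± 0.17, edgeR adjusted *P*=0.0364). *Smyd1-KO* heart 3 did not stand out for any of these 3 genes, and without it their estimates were -0.73, -0.62 and 0.87, with only *Mmp14* called. *Adamts5*, *Adamts9* and *Htra1* had log2 fold changes of -0.83, 0.71 and 0.81 and were not called, and that of *Htra1* was 0.34 without heart 3.

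**Figure D4:**
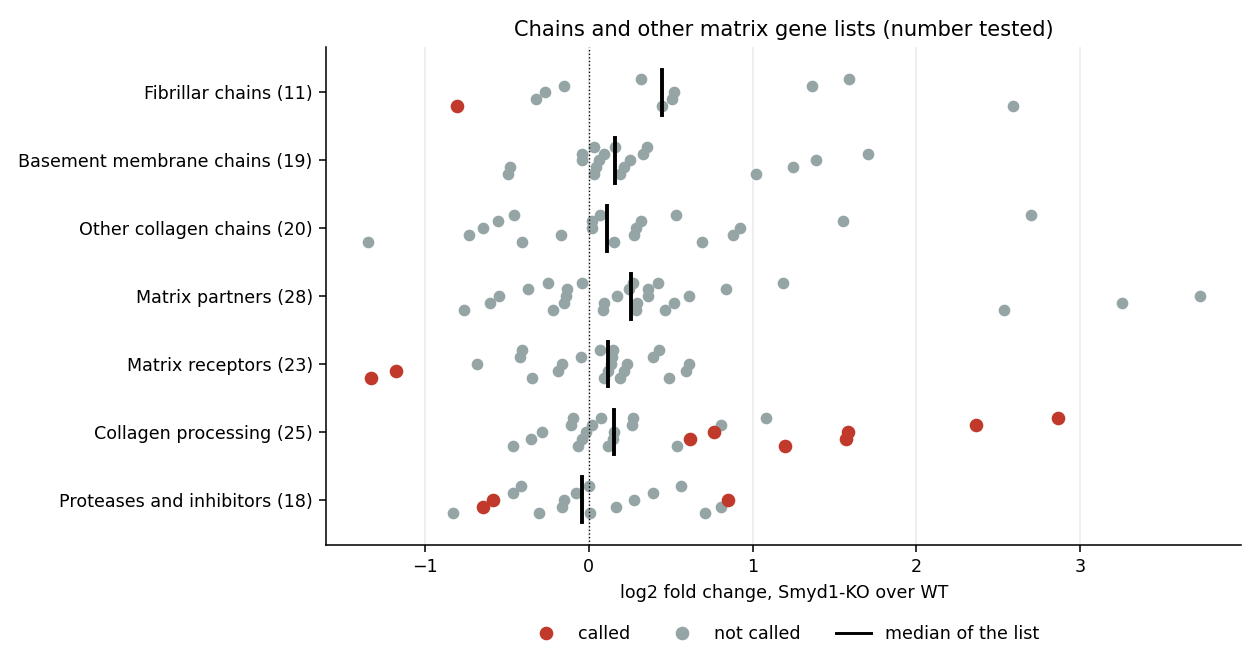
Log2 fold change of each tested gene in the 3 chain classes and in 4 lists of other matrix genes, with the number tested in brackets. Red points were called by edgeR, gray points were not, and vertical bars are list medians. The called genes lie mainly in the collagen processing list, all to the right of 0, with a single called chain at the left of the fibrillar class. The 4 lists were chosen with earlier results of these data known.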

How the data were processed

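Hearts of single E9.5 embryos were sequenced after selection of poly A RNA with oligo-dT, as paired-end reads. The authors aligned reads to mm10 with STAR in bcbio-nextgen and compared genotypes with DESeq2. The deposited values used here are raw counts per gene. The counting tool, annotation release and strand setting are not given in the sources used here, so reads of a gene and an overlapping antisense gene cannot be told apart. Such overlaps covered at most 6.27% of the exonic length of a chain. A deposited table of normalized values was not used.

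Counts were fitted with edgeR 4.0.16 (R 4.3.3) by filterByExpr, TMM scaling and the quasi-likelihood test of *Smyd1-KO* against WT in all 6 hearts, with Benjamini-Hochberg adjustment over 19372 of 54532 genes. The thresholds, those of the study, were 0.05 for the adjusted *P* and 0.5 for the log2 fold change in either direction. The biological coefficient of variation was 22.5%. On simulated counts of these 19372 genes, edgeR recovered 43 of 95 genes changed by 1 and 84 of 95 changed by 2 on the log2 scale, with 8 false calls, and DESeq2 64 and 89 of 100, with 57 false calls. The edgeR figures leave out changed genes that its filter removed. The simulation drew each gene independently with the edgeR dispersions and set no library apart. It therefore does not measure either tool where a heart stands apart, as here. Standard errors are the estimate divided by the square root of the *F* statistic. Levels per kilobase divide CPM by the length of the principal transcript in GENCODE M21 (GRCm38), so a heart that uses another isoform would be misjudged. Levels, ratios and shares between genes also depend on the length chosen. Over the length of all exons *Lamb1* was at 32.8 and *Lamc1* at 49.8 CPM per kb, the reverse of their order above. *Col2a1* (71.8), *Col18a1* (125) and *Col26a1* (7.40) kept the top ranks given above. Upstream sequences are from RefSeq on GRCm38.

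Named genes were the called chains, the 4 most abundant per kilobase and the 2 further ones with the largest change in each class, partners in a trimer or divergent pair, called genes and up to 3 others with the largest change at an unadjusted *P* under 0.05 in each matrix list, and *Smyd1*. Other chains were added to account for the members, of which 1 enters the counts and medians but is not reported here. Members and lists were chosen with earlier results of these data known. Alternatives were DESeq2 1.42.0, RLE and upper-quartile scaling, other filters, leaving out mitochondrially encoded and haemoglobin genes, a replicate block, and leaving out each heart.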

Additional observations from a re-analysis of the deposited data

How the results depend on the processing

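Scaling by RLE or the upper quartile, leaving out mitochondrially encoded and haemoglobin genes, dropping the limit on fold change, and counting *Col15a1* and *Col18a1* with the other collagens kept each count within 1.5 times and each class median within 1 SD between hearts. DESeq2 called 1749 genes in place of 830, and 10 chains in place of 1, with 2 fibrillar, 3 basement membrane and 5 other chains. It called 7 partner, 4 receptor and 5 protease or inhibitor genes. With no filter on low counts edgeR called 4 chains, 3 of them of the basement membrane (*Lama3*, *Lamb3* and *Col15a1*), and 3 partner genes, beside 3.09% of all genes. With at least 10 counts in every heart it called 2 chains, 1 of the basement membrane (*Col15a1*), beside 5.03% of all genes. The median of the other collagen chains then became 0.21, with fewer chains tested. The causes of the other changes were not tested. Hearts of the same number in the labels did not deviate together (*r*=-0.22, -0.05 and -0.18 across tested genes), so the numbers were not taken as pairs. A fit with the replicate number as a block called 59 genes, 0 chains (0 fibrillar), 0 receptor genes, 0 protease or inhibitor genes and 3 processing genes, with 0 chains at the threshold against 1 without the block, and gave *Col4a4* a log2 fold change of -0.025.

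Leaving out 1 heart at a time gave 97 to 1256 called genes, lowest without WT heart 2 and highest without *Smyd1-KO* heart 1. The chains called ran from 0 to 2, those of the basement membrane from 0 to 2 (*Lama3* and *Lamb3* without *Smyd1-KO* heart 1), and the fibrillar and other chains stayed at 0. Partner genes ran from 0 to 2, receptor genes from 0 to 2, processing genes from 3 to 8 and protease or inhibitor genes from 0 to 3. The class medians ran from 0.16 to 0.55 (fibrillar, lowest without *Smyd1-KO* heart 3), 0.037 to 0.25 (basement membrane, lowest without *Smyd1-KO* heart 3) and -0.12 to 0.27 (other, lowest without WT heart 1). The log2 fold change crossed 0 for *Col4a2* (-0.020 to 0.15), *Col4a4* (-0.67 to 0.56), *Col4a5* (-0.015 to 0.39), *Col4a6* (-0.30 to 0.10), *Col5a1* (-0.61 to 0.047), *Col5a2* (-0.14 to 0.79), *Col6a2* (-0.074 to 0.47), *Col9a2* (-0.25 to 0.43), *Col14a1* (-0.25 to 0.28), *Col17a1* (-0.48 to 0.41), *Col20a1* (-0.13 to 0.58), *Col25a1* (-0.36 to 0.45), *Lama1* (-0.029 to 0.43), *Lama2* (-0.25 to 0.15), *Lamb2* (-0.028 to 0.22) and *Lamc1* (-0.091 to 0.13), none of which was called. The shallowest library held 48627825 counts, and what depth limits was not tested.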

Other observations

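Of the 28 matrix partner genes, 3 were lower in every *Smyd1-KO* heart than in any WT heart and 3 were higher, beside 15.5% and 15.9% of all tested genes, and edgeR called none of them. They were chosen after their values were seen. *Fbn1*, fibrillin 1, which forms microfibrils, was at 87.0, 92.4 and 122 CPM in the *Smyd1-KO* hearts and 138, 213 and 159 CPM in the WT hearts (log2 fold change -0.76 ± 0.19, edgeR adjusted *P*=0.064, DESeq2 adjusted *P*=0.00299). *Fbn2*, the embryonic fibrillin, was at 281, 300.1 and 301 CPM and 348, 518 and 425 CPM (-0.55 ± 0.15, edgeR adjusted *P*=0.0728). *Tnc*, tenascin C, was at 147, 156 and 159 CPM and 173, 290.1 and 237 CPM (-0.60 ± 0.18, edgeR adjusted *P*=0.0921). For all 3 genes WT heart 2 was the highest of the 6, as it was for *Col2a1*, *Col7a1* and *Col13a1*.

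In the other direction, beside *Dcn*, *Fbln2*, fibulin 2, a binding partner of basement membrane and elastic fibre proteins, was at 32.1, 44.5 and 77.3 CPM in the *Smyd1-KO* hearts and 26.2, 18.7 and 22.6 CPM in the WT hearts (log2 fold change 1.19 ± 0.31, edgeR adjusted *P*=0.0703, and 0.77 without *Smyd1-KO* heart 3). *Nid1*, the nidogen that ties laminin to collagen IV, was at 137, 166 and 206 CPM and 129, 129 and 123 CPM (0.42 ± 0.14, edgeR adjusted *P*=0.126, and 0.26 without that heart). Both were highest in *Smyd1-KO* heart 3, and both were higher in the other *Smyd1-KO* hearts than in any WT heart.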
